A study of Mus musculus with 4 samples.

Results

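The 49 genes described here encode components of the PI3K, AKT and mTOR pathway, and were taken by name from a table of 46095 mouse gene symbols. They cover growth factor signals and their receptors, PI3K subunits, AKT and related kinases, phosphatases, the TSC complex, both mTOR complexes, mTORC1 substrates, nutrient sensors and FOXO factors. All 49 had a row and all passed the filter on low counts. Stomach RNA was sequenced from 2 WT and 2 *Atp4b-cre; MycOE* mice of the C57BL/6 strain at 12 weeks of age. The methods do not say which part of the stomach was taken. The WT mice are the *Myc* fl/fl littermates of the methods, which by that genotype carry the Cre-dependent *c-Myc* allele on both chromosomes and no Cre. In the *Atp4b-cre; MycOE* mice, which carry a single floxed allele (*Myc* fl/+), the *Atp4b* promoter drives Cre in the parietal cell lineage, so *c-Myc* is overexpressed from that allele in those cells.

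PI3K is a lipid kinase that receptors for insulin and IGF-1 recruit to the membrane through IRS adaptors. Its lipid product brings PDK1 and AKT together, AKT inhibits the TSC complex, and the GTPase RHEB, freed from TSC, activates mTORC1 on the lysosome. mTORC1 then favours translation over autophagy, while mTORC2 phosphorylates AKT and SGK kinases. Much of this control acts through phosphorylation, which RNA counts do not measure.

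The names and the counts of the *Atp4b-cre; MycOE* columns stand in different orders in the deposited table. For this account the transgenic counts kept their row order and were given the names after a sort by character code, with capitals first, and the WT columns were left as they were. Pearson's r across genes of the mean log2(count + 1) between the genotypes was 0.524 before and 0.985 after this step. Only *Eif4ebp1* and *Eif4ebp2* among the 49 genes hold the same counts in both orders. The values of the other 47 members in transgenic mice rest on the re-sorting.

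The samples held between 30260305 and 41463647 counts, and the members between 8 and 24344 counts in a sample. Mouse *Myc* stood at 31.6 and 27.2 normalised CPM in the WT samples and lower, at 21.7 and 24.4, in the transgenic ones, and was not called (log2 fold change -0.35, standard error 0.14, edgeR adjusted p = 0.163). The overexpressed *c-Myc* is the human gene, by the study's own description, and no row carries a name for it, so the mouse row is no check of the labels. Cell type markers differed widely. Of 10 parietal cell markers 9 were called lower in transgenic mice, with a summed level of 13930 to 14220 normalised counts on the CPM scale, which is relative to the scaled library size, in WT and 1860 to 1915 in transgenic mice, and so were 4 of 5 tested chief cell and 4 of 5 surface mucous cell markers. Fewer cells of a type and less RNA per cell cannot be told apart in such samples. WT replicate 2 held 17846 counts of *Xist*, against 85 to 201 elsewhere, so this animal differs from the others in the sex that *Xist* marks. Transgenic replicate 2 stood apart in skeletal muscle markers, with a summed level of 822 CPM against 16.2 to 109.5 in the others, and in forestomach squamous markers, with 4188 against 818 to 2443.

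The genotypes were compared gene by gene in edgeR (quasi-likelihood F test, TMM scaling), and a gene was called at a Benjamini-Hochberg adjusted p under 0.05 with a change above 1.5-fold in either direction. Of the 49 members 4 were called, 1 higher (*Eif4ebp1*) and 3 lower (*Mtor*, *Irs2* and *Sgk1*) in *Atp4b-cre; MycOE* mice. This is 8.16% of the members, beside 10.7% of all 17643 tested genes, of which 5.65% were called higher and 5.08% lower. At an adjusted p under 0.05 and any fold change there were 9 members, beside 12.9% of all tested genes, the other 5 being *Igf1r*, *Pik3r1*, *Akt2*, *Tsc2* and *Eif4ebp2*. DESeq2, with the same thresholds, called 7 members (14.3%), beside 17.7% of 18257 genes. An unadjusted p under 0.05 in edgeR was found for 18 members, beside 34.1% of all tested genes. The median log2 fold change was -0.12 over the members and 0.012 over all tested genes. The smallest two-sided p that an exact permutation of 2 against 2 samples can give is 0.333, so single values were tested only in the fit across all genes. The called shares of the members and of all genes were close, and the account that follows therefore goes gene by gene.

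**Figure D1:**
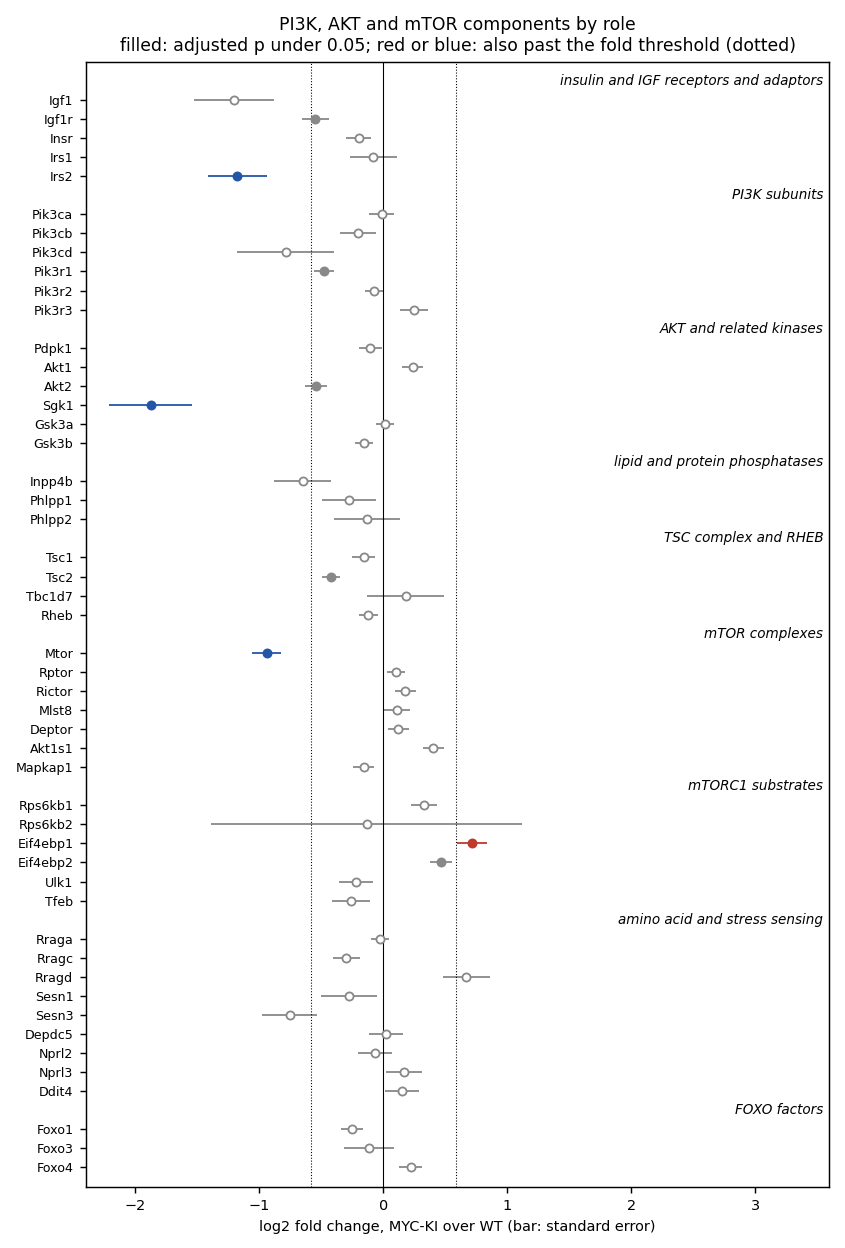
Log2 fold change of each of the 49 members between *Atp4b-cre; MycOE* (MYC-KI) and WT samples, with bars of 1 standard error, n = 2 samples per genotype, grouped by role. Filled points have an adjusted p under 0.05, and only *Irs2*, *Sgk1* and *Mtor* (blue, lower) and *Eif4ebp1* (red, higher) also lie beyond the dotted lines, which mark the 1.5-fold threshold in each direction.

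The regulatory sequence before the start site was read for the members because MYC with its partner MAX binds the E-box CACGTG. RefSeq windows of the assembly GRCm38.p6, from 250 bases before to 50 bases after each start, were found for 44 members, and *Insr*, *Deptor*, *Eif4ebp1*, *Rps6kb2* and *Foxo4* have none in the table. The motif, which reads the same on both strands, occurred in at least 1 window of 6 members (13.6%), namely *Irs1*, *Irs2*, *Sgk1*, *Rheb*, *Rragc* and *Tbc1d7*, and in 8.09% of 27025 genes. *Sgk1* has it in 1 of its several windows. The 250 bases before the start are shown for 2 members that were lower, *Irs2* (chr8:11008930-11009179, minus strand) and *Mtor* (chr4:148448332-148448581, plus strand), and for *Eif4ebp2* (chr10:61452670-61452919, minus strand), whose level was higher. Capitals mark the E-box, which begins 44 bases before the RefSeq start of *Irs2*. The GENCODE annotation, used here for gene positions, starts *Irs2* further along the minus strand, at chr8:11008458. The letters CACGTG are in neither of the other windows.
Irs2: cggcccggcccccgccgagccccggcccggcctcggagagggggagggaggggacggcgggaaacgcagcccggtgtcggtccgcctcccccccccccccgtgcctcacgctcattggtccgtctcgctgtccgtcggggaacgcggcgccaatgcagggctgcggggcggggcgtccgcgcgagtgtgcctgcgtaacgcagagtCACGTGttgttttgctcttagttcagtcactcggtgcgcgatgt
Mtor: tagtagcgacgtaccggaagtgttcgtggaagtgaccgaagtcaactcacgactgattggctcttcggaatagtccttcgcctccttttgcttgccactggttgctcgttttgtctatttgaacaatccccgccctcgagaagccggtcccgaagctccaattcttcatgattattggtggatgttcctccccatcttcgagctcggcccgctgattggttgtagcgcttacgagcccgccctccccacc
Eif4ebp2: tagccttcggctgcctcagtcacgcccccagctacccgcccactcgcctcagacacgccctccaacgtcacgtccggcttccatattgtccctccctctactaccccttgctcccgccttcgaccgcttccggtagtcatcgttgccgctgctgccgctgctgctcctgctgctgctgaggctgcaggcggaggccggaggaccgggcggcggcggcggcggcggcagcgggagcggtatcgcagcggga

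At the top of the pathway the IRS adaptor gene *Irs2* fell and its paralog *Irs1* was not called. IRS proteins dock PI3K to the activated insulin and IGF-1 receptors. *Irs2* (mm10, chr8:10984681-11008458) had 40.9 and 46.9 normalised CPM in the WT samples and 15.3 and 23.4 in the transgenic samples. Both transgenic samples lay below both WT samples, a log2 fold change of -1.18 (standard error 0.24, edgeR adjusted p = 0.0491). *Irs1* had 24.97 and 34.3 CPM in WT and 26.4 and 29.6 in transgenic mice, so the genotypes overlapped (log2 fold change -0.08, standard error 0.19, edgeR adjusted p = 0.806). In the same sample there were 1.64 and 1.37 *Irs2* counts for each *Irs1* count in WT, and 0.580 and 0.790 in transgenic mice. This ratio does not depend on the scaling of a library, and it was chosen, like the other ratios given here, after the values had been seen. The opposite-strand gene Gm9747 covers 30.9% of the annotated exon bases of *Irs1*, and strand-specific counting is not stated, so reads of the pair cannot be told apart.

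*Igf1*, the ligand, had 32.7 and 57.2 CPM in WT and 16.8 and 22.1 in transgenic mice. Both transgenic samples were lower, and the log2 fold change of -1.21 (standard error 0.32) had an adjusted p of 0.0806 from edgeR and of 0.00225 from DESeq2. The value was -1.56 without WT replicate 1 and -0.75 without WT replicate 2. Adipocyte markers moved in the same direction, with summed levels of 189 and 483 CPM in WT and 34.2 and 57.0 in transgenic mice, and of the 7 markers all lay lower in both transgenic samples and 2 were called. *Adipoq*, the gene for adiponectin, had 461 and 1557 counts in the WT samples against 0 and 80 in the transgenic samples. Of the leukocyte markers the macrophage genes *Adgre1*, *Itgam* and *Csf1r* were the 3 called lower of 7 tested, while *Cd68*, also a macrophage gene, overlapped between the genotypes (log2 fold change -0.16, edgeR adjusted p = 0.773), and the list summed to 115 to 131 CPM in WT and 50.8 to 61.1 in transgenic mice. The part of these cells in the value of *Igf1* was not tested.

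Of the receptor genes, *Igf1r* had 74.9 and 79.2 CPM in WT and 57.2 and 48.3 in transgenic mice. The change of -0.55 on the log2 scale (standard error 0.11, edgeR adjusted p = 0.0497) passed the p threshold and not the fold threshold. Without transgenic replicate 1 it was -0.67 and was called (edgeR adjusted p = 0.0363). *Insr*, for the insulin receptor, had 104.8 and 115.8 CPM in WT and 91.2 and 101.1 in transgenic mice (log2 fold change -0.20, standard error 0.10, edgeR adjusted p = 0.248).

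Among the 6 PI3K subunits edgeR and DESeq2 each called 0, beside 10.7% and 17.7% of all genes. In edgeR 1 had an unadjusted p under 0.05, beside 34.1% of all tested genes. The catalytic genes *Pik3ca* and *Pik3cb*, which most cells express, had log2 fold changes of -0.01 (standard error 0.10) and -0.20 (standard error 0.15). *Pik3ca* had 76.3 and 72.2 CPM in WT and 68.6 and 78.6 in transgenic mice, which overlap. *Pik3cd*, whose catalytic subunit is found mainly in leukocytes, was scarce, with 45 and 44 counts in the WT samples against 33 and 32 in the transgenic samples (log2 fold change -0.79, standard error 0.39, edgeR adjusted p = 0.239). *Pik3r1*, the main regulatory subunit, had 231 and 242 CPM in WT and 171 and 169 in transgenic mice. The change of -0.48 on the log2 scale (standard error 0.08, edgeR adjusted p = 0.0352) passed the p threshold only. The other regulatory genes had values of -0.08 for *Pik3r2* (standard error 0.07) and 0.25 for *Pik3r3* (standard error 0.11, edgeR adjusted p = 0.203). *Pik3r3* lay higher in both transgenic samples, with 46.0 and 42.8 CPM against 34.7 and 39.9. Gm49337, on the same strand, shares 24.3% of the exon bases of *Pik3r3*, and reads there cannot be told apart by strand. The counts of *Pik3r3* for each *Pik3r1* count were 0.150 and 0.165 in WT and 0.269 and 0.252 in transgenic mice, and those of *Pik3r1* for each *Pik3ca* count were 3.03 and 3.36 against 2.49 and 2.15. Both ratios separated the genotypes, but both contain the *Pik3r1* counts, which were lower in transgenic mice, so they are no separate findings.

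*Pdpk1*, which encodes the PDK1 kinase that phosphorylates AKT, had a log2 fold change of -0.11 (standard error 0.09) with overlapping samples. *Akt1* had 288 and 286 CPM in WT and 351 and 325 in transgenic mice (log2 fold change 0.24, standard error 0.09, edgeR adjusted p = 0.140). *Akt2*, the isoform best known for insulin action, had 142 and 155 CPM in WT and 99.4 and 104.8 in transgenic mice. The change of -0.54 on the log2 scale (standard error 0.09, edgeR adjusted p = 0.0350) lay just inside the fold threshold and was not called. There were 2.02 and 1.84 counts of *Akt1* for each count of *Akt2* in WT and 3.53 and 3.10 in transgenic mice, a mean ratio 1.72-fold higher. Per kilobase of annotated exon, the mean levels in WT were 69.9 CPM for *Akt1* and 20.9 for *Akt2*.

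*Sgk1* fell most among the members. It encodes a kinase related to AKT that mTORC2 activates and that is known for control of ion transport in epithelia. The gene (mm10, chr10:21882184-21999903) had 301 and 262 CPM in WT and 100.4 and 53.1 in transgenic mice. The samples of the genotypes were far apart, with a 3.67-fold difference (log2 fold change -1.88, standard error 0.33, edgeR adjusted p = 0.0399). Its value was -2.41 without transgenic replicate 1 and -1.49 without transgenic replicate 2, both called. For each *Akt1* count there were 1.05 and 0.918 *Sgk1* counts in the WT samples, against 0.286 and 0.164 in the transgenic samples. The parietal cell markers, which were lower in the same samples, are given with the depth of the samples, and their part in this value was not tested.

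The kinases that AKT inhibits were not called. *Gsk3a* had 88.6 and 90.5 CPM in WT and 90.6 and 89.8 in transgenic mice (log2 fold change 0.01, standard error 0.07), and the opposite-strand gene 9130221H12Rik covers 28.3% of its exon bases. *Gsk3b* had 131.8 and 129.8 CPM in WT and 119.0 and 115.4 in transgenic mice, a small separation (log2 fold change -0.16, standard error 0.07, edgeR adjusted p = 0.221). Of the genes that act against PI3K and AKT, *Inpp4b*, a phosphatase of the PI3K lipid products, had 8.85 and 7.89 CPM in WT and 4.69 and 5.98 in transgenic mice (log2 fold change -0.65, standard error 0.23, edgeR adjusted p = 0.134). *Phlpp1* and *Phlpp2*, which dephosphorylate AKT, overlapped between the genotypes, with log2 fold changes of -0.28 (standard error 0.22) and -0.13 (standard error 0.27).

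**Figure D2:**
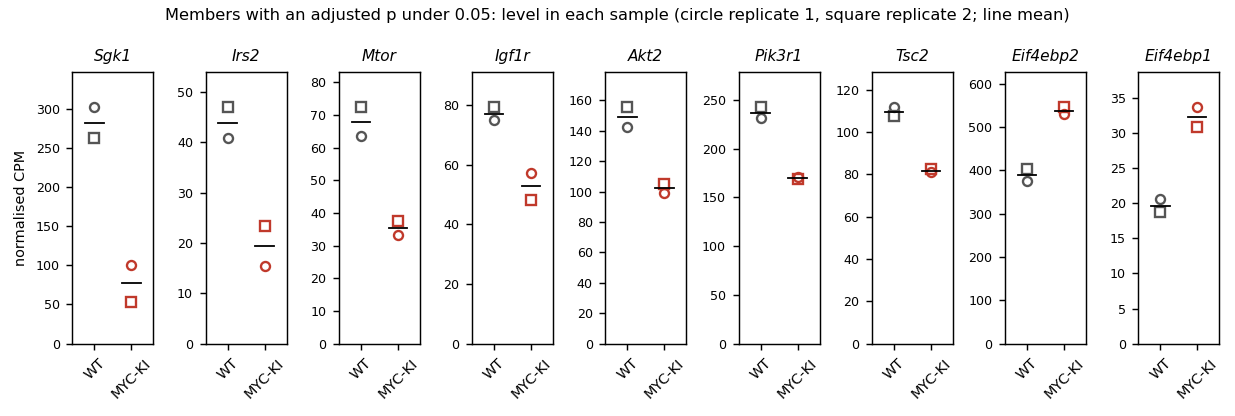
Normalised CPM in each sample for the 9 members with an adjusted p under 0.05, on axes that start at 0, with circles for replicate 1, squares for replicate 2 and a line at the mean of 2 samples. In every panel both MYC-KI samples lie on the same side of both WT samples, lower in 7 genes and higher in *Eif4ebp1* and *Eif4ebp2*.

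Among the brakes on mTORC1, *Tsc2*, the subunit of the TSC complex that inactivates RHEB, had 111.6 and 107.4 CPM in WT and 80.9 and 82.5 in transgenic mice. The groups were well separated, and the log2 fold change of -0.42 (standard error 0.08, edgeR adjusted p = 0.0399) was under the fold threshold. *Tsc1*, which stabilises TSC2, had 47.9 and 43.7 CPM in WT and 40.7 and 41.5 in transgenic mice (log2 fold change -0.16, standard error 0.09, edgeR adjusted p = 0.299). The ratio of *Tsc2* to *Tsc1* counts was 2.33 and 2.46 in WT and 1.99 in both transgenic samples. *Tbc1d7*, the third subunit, overlapped between the genotypes (0.18, standard error 0.31). *Rheb* differed by -0.12 on the log2 scale (standard error 0.07, edgeR adjusted p = 0.326), with 75.3 and 76.4 CPM in WT and 68.2 and 71.3 in transgenic mice. Exons of the opposite-strand gene *Pkd1* cover 7.2% of the exon bases of *Tsc2*.

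*Mtor*, the kinase shared by both complexes, was lower in *Atp4b-cre; MycOE* mice on the re-sorted counts. The gene (mm10, chr4:148448611-148557683) had 63.7 and 72.3 CPM in WT and 33.2 and 37.5 in transgenic mice. Levels were 1.92-fold lower without overlap (log2 fold change -0.94, standard error 0.12, edgeR adjusted p = 0.0238). This direction rests on the re-sorting, since with names and counts as deposited the value was 1.75, higher in transgenic mice. No other gene overlaps its annotated exons.

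No other subunit of the mTOR complexes was called. *Rptor*, which defines mTORC1, had 63.1 and 62.8 CPM in WT and 67.3 and 67.7 in transgenic mice (log2 fold change 0.10, standard error 0.07, edgeR adjusted p = 0.372). *Rictor*, which defines mTORC2, had 40.4 and 40.0 CPM in WT and 46.3 and 44.6 in transgenic mice (0.18, standard error 0.08, edgeR adjusted p = 0.212). Replicates of these scaffold genes lay very close together, and the transgenic samples were slightly above WT. *Mapkap1*, another mTORC2 subunit, had 75.6 and 68.8 CPM in WT and 63.9 and 65.4 in transgenic mice (-0.16, standard error 0.08). *Mlst8*, shared by both complexes, had 25.3 and 26.1 CPM in WT and 28.3 and 27.2 in transgenic mice (0.11, standard error 0.10), and 22.5% of its exon bases are also annotated to the opposite-strand gene *Bricd5*. The 2 inhibitory subunits had values above 0. *Akt1s1*, for PRAS40, had 72.4 and 76.2 CPM in WT and 94.6 and 102.1 in transgenic mice (0.40, standard error 0.08, edgeR adjusted p = 0.0519). *Deptor* was the most abundant member of this group, with 294 and 289 CPM in WT and 306 and 328 in transgenic mice (0.12, standard error 0.08, edgeR adjusted p = 0.380).

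The counts of the other 6 subunits were also divided by the *Mtor* counts of the same sample. *Mtor* was taken as the divisor after its fall had been seen, so that a higher ratio for a subunit that changed less restates that fall and is no separate finding. *Rptor* had 0.990 and 0.868 counts for each *Mtor* count in WT and 2.03 and 1.80 in transgenic mice. For *Rictor* these values were 0.635 and 0.553 against 1.39 and 1.19. The mean ratio was between 1.71-fold and 2.54-fold higher, the lowest for *Mapkap1*, whose own level lay lower in both transgenic samples, and the highest for *Akt1s1*. The ratios share the *Mtor* counts, and no test was made of them.

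**Figure D3:**
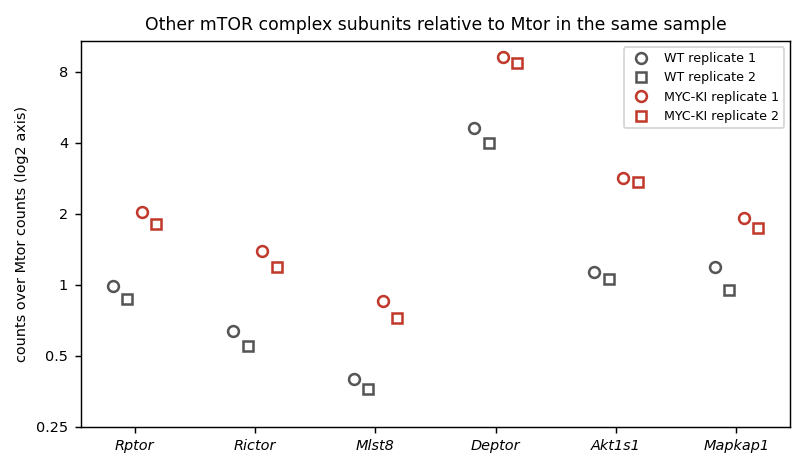
Counts of 6 mTOR complex subunits divided by the *Mtor* counts of the same sample, on a log2 axis, with 1 point per sample (grey WT, red MYC-KI). For each subunit both MYC-KI points lie above both WT points, by 1.71-fold to 2.54-fold in the mean, which restates the lower *Mtor* counts.

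Among the substrates of mTORC1, *Eif4ebp1* rose. It encodes a repressor of cap-dependent translation that releases eIF4E when mTORC1 phosphorylates it. The gene (mm10, chr8:27260329-27276674) had 20.6 and 18.7 CPM in WT and 33.6 and 30.8 in transgenic mice, a 1.64-fold difference (log2 fold change 0.71, standard error 0.12, edgeR adjusted p = 0.0378). Its paralog *Eif4ebp2* had 376 and 403 CPM in WT and 529 and 545 in transgenic mice. The samples did not overlap, and the log2 fold change of 0.46 (standard error 0.09, edgeR adjusted p = 0.0449) passed the p threshold only. The counts of these paralogs stand at the same place in both row orders. *Eif4ebp2* was the more abundant, with 67.3 CPM per kilobase of exon in WT against 8.94 for *Eif4ebp1*.

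*Rps6kb1*, for the S6 kinase that phosphorylates ribosomal protein S6, had 44.5 and 48.4 CPM in WT and 62.2 and 54.6 in transgenic mice (log2 fold change 0.33, standard error 0.11, edgeR adjusted p = 0.111). Its paralog *Rps6kb2* had 90 and 8 counts in the WT samples against 15 and 101 in the transgenic samples. Replicates of *Rps6kb2* thus differed by more than the genotypes (standard error 1.25), and 23.7% of its exon bases overlap other genes, mainly *Ptprcap* on the opposite strand. *Ulk1*, which starts autophagy and is inhibited by mTORC1, had 80.6 and 76.9 CPM in WT and 59.7 and 75.2 in transgenic mice (-0.22, standard error 0.13). *Tfeb*, a lysosomal transcription factor that mTORC1 keeps in the cytoplasm, had 20.6 and 21.8 CPM in WT and 15.9 and 19.3 in transgenic mice (-0.26, standard error 0.15, edgeR adjusted p = 0.299). Neither was called.

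Of the 9 genes of amino acid and stress sensing edgeR called 0, beside 10.7% of all tested genes. At an unadjusted p under 0.05 in edgeR there were 3, beside 34.1% of all tested genes. DESeq2 called *Rragd* higher and *Sesn3* lower, beside its 17.7% over all genes. The RAG GTPases carry the amino acid signal to mTORC1. *Rragd* had 11.4 and 9.28 CPM in WT and 17.8 and 15.1 in transgenic mice (log2 fold change 0.67, standard error 0.19), with an adjusted p of 0.0877 from edgeR and of 0.0319 from DESeq2. Its paralog *Rragc* had 85.4 and 86.2 CPM in WT and 63.7 and 75.7 in transgenic mice (-0.30, standard error 0.11, edgeR adjusted p = 0.143). *Rraga* was nearly level, with 61.5 and 61.7 CPM in WT and 61.3 and 59.4 in transgenic mice (-0.03, standard error 0.07).

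The sestrins, stress-induced inhibitors of mTORC1, included *Sesn3* with 14.0 and 16.6 CPM in WT and 7.70 and 10.4 in transgenic mice. The change of -0.76 on the log2 scale (standard error 0.22) had an adjusted p of 0.0946 from edgeR and of 0.0284 from DESeq2. *Sesn1* overlapped between the genotypes (-0.28, standard error 0.23), as its WT replicates differed, with 34.2 and 22.5 CPM. The GATOR1 subunits, which switch the RAG GTPases off, had values of 0.02 for *Depdc5* (standard error 0.14), -0.06 for *Nprl2* (standard error 0.14) and 0.16 for *Nprl3* (standard error 0.15). Exons of *Mpg* on the opposite strand cover 17.7% of the exon bases of *Nprl3*. *Ddit4*, a stress-induced activator of the TSC complex, had 53.7 and 51.7 CPM in WT and 65.5 and 51.6 in transgenic mice (0.15, standard error 0.14).

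FOXO factors are transcription factors that AKT excludes from the nucleus. *Foxo1* had 55.5 and 51.2 CPM in WT and 45.5 and 44.1 in transgenic mice (log2 fold change -0.25, standard error 0.09, edgeR adjusted p = 0.127). *Foxo3* had 108.1 and 107.4 CPM in WT and 80.7 and 118.1 in transgenic mice, so the transgenic replicates lay on either side of WT. *Foxo4* had 48.4 and 53.3 CPM in WT and 57.5 and 61.0 in transgenic mice (0.22, standard error 0.09, edgeR adjusted p = 0.178). The 3 factors were not called. *Sesn1*, *Sesn3*, *Irs2* and *Insr* are themselves known targets of FOXO factors in other tissues.

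Of the 49 members, 36 had transgenic samples that did not overlap the WT samples, 13 higher and 23 lower, beside 64.9% of all tested genes. By direction these were 26.5% and 46.9% of the members, beside 33.3% of all tested genes higher and 31.5% lower. When libraries were scaled by their size alone, the median log2 fold change of all genes moved from 0.012 to 0.235, and the share of higher genes among those called moved from 52.6% to 75.5%. Under that scaling 16 members with small values changed sign, *Irs2* was no longer called (log2 fold change -0.96, edgeR adjusted p = 0.0539), and *Akt1s1* (0.63), *Eif4ebp2* (0.69) and *Rragd* (0.89) were called higher. In all 12.2% of the members and 17.1% of all tested genes were called there. *Mtor*, *Sgk1* and *Eif4ebp1* were called there too.

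When either WT sample was left out the spread rested on the transgenic pair alone and edgeR called 0 genes. The adjusted p-values of the 4 called members were then between 0.196 and 0.268, their directions were the same, and 11 members (22.4%) had an unadjusted p under 0.05 in each of these fits, beside 19.4% of all tested genes without WT replicate 1 and 18.3% without WT replicate 2. DESeq2 called 4 members without WT replicate 1 and 1 without WT replicate 2, all lower, beside 7.26% and 6.59% of all genes with an adjusted p. *Eif4ebp1* was also lost without transgenic replicate 1 (log2 fold change 0.65, edgeR adjusted p = 0.0721). Without transgenic replicate 2, which stood apart in muscle and squamous markers, edgeR called 1 member higher and 3 lower (8.16%), beside 13.5% of all tested genes.

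Other genes of the pathway were read from lists that hold none of the members. Of 29 further PI3K and AKT pathway genes 2 were called higher and 5 lower, with a median log2 fold change of -0.36. The called share was 24.1%, beside 10.7% of all tested genes. The 2 that rose encode a catalytic and a regulatory subunit of the class IB enzyme, which G protein-coupled receptors activate. The catalytic gene *Pik3cg* had 10.2 and 9.10 CPM in WT and 32.1 and 21.4 in transgenic mice (log2 fold change 1.47, standard error 0.24, edgeR adjusted p = 0.0356). The gene of its regulatory subunit, *Pik3r5*, had 7.96 and 10.5 CPM in WT and 42.5 and 26.4 in transgenic mice (1.90, standard error 0.30, edgeR adjusted p = 0.0337). No overlap was seen in either gene. *Pik3r6*, the other regulatory subunit of this class, was not called and lay lower in both transgenic samples, with 2.15 and 2.58 CPM in WT and 1.95 and 1.14 in transgenic mice (log2 fold change -0.62, standard error 0.41, edgeR adjusted p = 0.359). This enzyme is known from leukocytes and mast cells. Of 6 mast cell markers 4 were called higher, with summed levels of 70.2 and 93.0 CPM in WT and 229 and 238 in transgenic mice, whereas the pan-leukocyte gene *Ptprc* had 15.0 and 21.2 CPM in WT and 21.9 and 13.3 in transgenic mice. The part of these cells in the rise of *Pik3cg* and *Pik3r5* was not tested.

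The largest falls in this list were those of *Igfbp2*, an IGF-binding protein, from 94.0 and 111.4 CPM to 10.7 and 20.5 (log2 fold change -2.72, standard error 0.35, edgeR adjusted p = 0.0260), and of *Foxo6*, from 2.59 and 4.30 CPM to 0.560 and 0.649 (-2.50, standard error 0.42, edgeR adjusted p = 0.0374). The other 3 that fell, outside the naming rule and listed after their values were seen, were *Sgk2* (-1.13), *Igfbp4* (-1.07) and *Igfbp7* (-0.75). Both *Sgk1* and *Sgk2* were thus called lower, while *Sgk3* was not called (-0.20, standard error 0.17, edgeR adjusted p = 0.452).

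Of 38 further mTOR pathway genes 1 was called higher and 2 lower, with a median of 0.06. The called share was 7.89%, beside 10.7% of all tested genes. *Eif4b*, a translation initiation factor that S6 kinase phosphorylates, rose from 370.5 and 364.5 CPM to 578 and 612 (log2 fold change 0.69, standard error 0.09, edgeR adjusted p = 0.0244). *Mitf*, which belongs to the same factor family as *Tfeb*, fell from 18.1 and 17.7 CPM to 7.40 and 7.39 (-1.28, standard error 0.14, edgeR adjusted p = 0.0216). *Fnip2*, a partner of folliculin in RAG signalling, fell from 65.5 and 67.1 CPM to 38.0 and 40.2 (-0.76, standard error 0.08, edgeR adjusted p = 0.0204).

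Of 16 FOXO target genes 3 were called lower and 0 higher, with 6 of the 16 at an unadjusted p under 0.05 (edgeR). Their median log2 fold change was 0.05, with 9 values above 0 and 7 below, and the called share was 18.8%, beside 10.7% of all tested genes. The 3 that fell were the catalase gene *Cat* (log2 fold change -1.19), *Klf15* (-1.21) and *Sod2* (-0.70), for which edgeR gave an adjusted p of 0.0171, 0.0475 and 0.0250 in this order. *Cat* and *Sod2* encode enzymes that remove reactive oxygen, and they are also abundant in cells rich in peroxisomes or mitochondria. Of 18 lysosomal targets of TFEB edgeR called 0, with 4 at an unadjusted p under 0.05, and their median was -0.14 in a range from -0.46 to 0.29. DESeq2 also called 0 of these 18. Beside its 17.7% over all genes, it called 5 of the FOXO targets lower and 0 higher, 3 of the further mTOR pathway genes in each direction, and 2 of the further PI3K and AKT pathway genes higher and 8 lower.

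**Figure D4:**
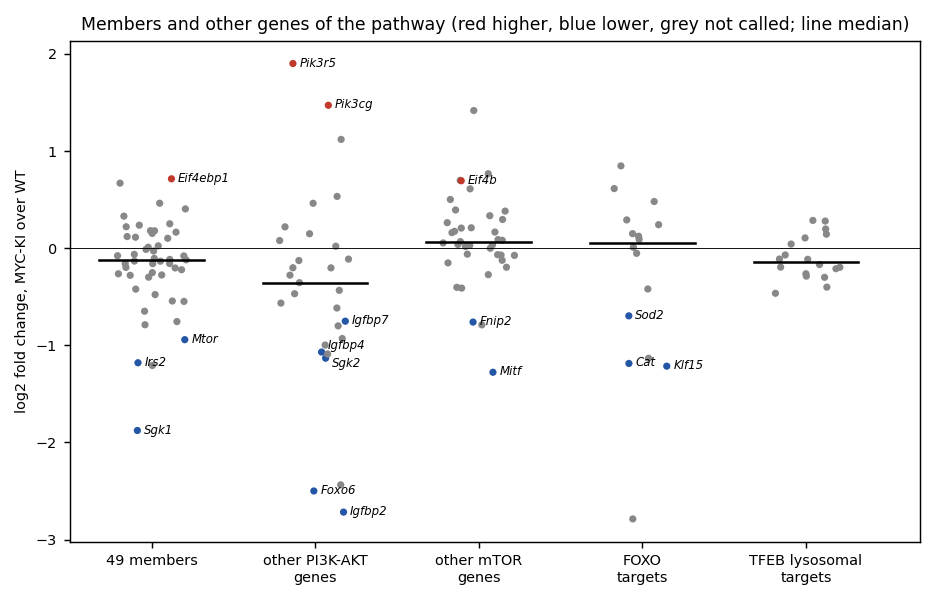
Log2 fold change between MYC-KI and WT, 1 point per tested gene, for the 49 members and 4 lists of other genes of the pathway, with a line at the median and called genes named (red higher, blue lower). Medians lie between -0.36 and 0.06, and called genes occur on both sides of 0 among the members, the other PI3K-AKT genes and the other mTOR genes.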

How the data were processed

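Stomach RNA of 2 WT and 2 *Atp4b-cre; MycOE* mice was analysed, 1 sample per animal as far as the labels say. The authors deposited 1 table of raw counts per gene symbol, not normalised. The submitters' processing notes name HISAT2 and the build mm10. The counting tool, strand setting and annotation are not given in the sources used here. The names of 2 transgenic columns were re-sorted as the report describes. The members and all lists were chosen with earlier results of these data known.

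Counts were fitted with edgeR 4.0.16 in R 4.3.3 (TMM, filterByExpr, glmQLFit, glmQLFTest, Benjamini-Hochberg adjustment over 17643 genes). Standard errors were obtained from the fold change and the F statistic (size of the log2 value over the root of F). DESeq2 1.42.0 was an alternative, as were other scalings, filters and thresholds, a replicate block, the deposited row order and leaving out each sample. The script was tested on simulated counts with planted changes larger than that of any member. That run gives no measure of how well changes of the members' size are found. Exon lengths, positions and overlaps came from GENCODE M21, also of mm10. The rule named all members, of each other list the called genes, at most the 4 largest, and *Myc* and genes that check cell type. The markers *Adipoq*, *Ptprc* and *Cd68* were picked from their lists, and *Sgk2*, *Sgk3*, *Igfbp4*, *Igfbp7*, *Pik3r6* and *Xist* were named outside the rule, after their values were seen. With 30260305 to 41463647 counts per sample, counting error is largest for the sparse members *Pik3cd* and *Rps6kb2*, and the p-values measure the spread between 2 samples per genotype.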

Additional observations from a re-analysis of the deposited data

How the results depend on the processing

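The 4 called members had the same direction in every alternative on the re-sorted counts, with *Mtor* at -1.03 to -0.72 on the log2 scale. With names and counts as deposited, *Mtor* was at 1.75, and 18580 genes, 11 members higher and 30 lower were called, 83.7% of the members beside 84.1% of all genes. DESeq2 called 3234 genes, 2 members higher and 5 lower, adding *Igf1*, *Rragd* and *Sesn3*, which is 14.3% of the members beside 17.7% of all genes. Library size without scaling factors gave 3011 genes, 4 members higher and 2 lower, which is 12.2% of the members beside 17.1% of all genes. Without a fold change threshold 2 members were higher and 7 lower, 18.4% of the members beside 12.9% of all genes. Above an absolute log2 fold change of 1 there were 1113 genes, 0 members higher and 2 lower. This is 4.08% of the members beside 6.31% of all genes. Leaving out each sample gave 0 to 2470 genes, 0 to 1 members higher and 0 to 4 lower.

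Same-numbered samples share only a number (r = 0.0639 of their deviations over genes). With the replicate number as a block edgeR called 114 genes, 0 members higher and 0 lower, with 13 members (26.5%) at an unadjusted p under 0.05, beside 29.3% of all tested genes, and DESeq2 called 1 member higher and 4 lower, beside 13.7% of all genes with an adjusted p. Block values were -0.94 for *Mtor*, -1.94 for *Sgk1*, -1.21 for *Irs2* and 0.71 for *Eif4ebp1*, with adjusted p-values of 0.0543 to 0.0793.

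Members that changed sign under a scaling, filter, block or left-out sample had main values of at most 0.276 in size. With library size these were *Insr* 0.0249, *Irs1* 0.144, *Pik3ca* 0.21, *Pik3cb* 0.0192, *Pik3r2* 0.145, *Pdpk1* 0.118, *Gsk3b* 0.065, *Phlpp2* 0.0896, *Tsc1* 0.0642, *Rheb* 0.103, *Mapkap1* 0.0632, *Rps6kb2* 0.0831, *Ulk1* 0.000316, *Rraga* 0.194, *Nprl2* 0.159 and *Foxo3* 0.107. *Gsk3a* was at -0.00348 with the size factors of DESeq2, *Pik3ca* at 0.00166 without a filter and *Rps6kb2* at 0.0861 with the block. Over left-out samples the ranges were -0.291 to 0.163 for *Irs1*, -0.114 to 0.0839 for *Pik3ca*, -0.00603 to 0.0228 for *Gsk3a*, -0.425 to 0.112 for *Phlpp2*, -0.129 to 0.571 for *Tbc1d7*, -1.75 to 2.23 for *Rps6kb2*, -0.548 to 0.0564 for *Sesn1*, -0.0831 to 0.124 for *Depdc5*, -0.0284 to 0.315 for *Ddit4* and -0.416 to 0.134 for *Foxo3*. Without scaling factors every member value moved up, as did the median over all tested genes, from 0.012 to 0.235. The cause of the sign changes in the other fits was not tested. *Pik3cd* and *Rps6kb2* have the fewest counts and the widest errors.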
